A study of Bos taurus with 12 samples.

Results

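The miR-29 family was described in granulosa cells, the hormone-producing cells that line the inside of a growing follicle, of bovine subordinate follicles (SF) and dominant follicles (DF). Its members were taken by name as bta-miR-29a, bta-miR-29b, bta-miR-29c and bta-miR-29d, which made 4 of the 755 mature miRNA names counted and 5 of their 906 precursor entries. The entry with the highest total count stood for each name, and both entries of bta-miR-29b held the same count in 12 of 12 libraries. Small RNA had been sequenced in 12 libraries, with 3 biological replicates for each follicle class on day 3 and again on day 7 after estrus.

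All animals were Simmental heifers whose estrus had been synchronised with the prostaglandin F analogue cloprostenol and the GnRH analogue buserelin, and different heifers were slaughtered on the 2 days. Their age is not given in the sources used here. Follicles were classed as SF or DF by diameter, with a larger upper limit for SF at day 7 than at day 3, and their contents were pooled by follicle size before the granulosa cells were pelleted. As the study's methods count no more dominant follicles at day 7 than there were DF libraries on that day, those libraries were not pools of many follicles as the SF libraries were. Follicles of both classes came from the ovaries of the heifers slaughtered that day, so SF and DF libraries of a day may share animals. Labels do not tie a replicate number to an animal, and the main tests treated all libraries as independent. The p values thus measure the spread between these samples, which may not be separate animals.

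Members of the miR-29 family share a seed, the stretch near the 5′ end through which a miRNA recognises its targets, and are best known for repressing collagens and other components of the extracellular matrix. A fall of miR-29 accompanies scarring in several organs. Around a follicle, matrix forms the basal lamina beneath the granulosa cells and is remodelled while the follicle grows. In the RefSeq gene order of the assembly ARS-UCD2.0, MIR29A lies next to MIR29B-1, MIR29B-2 lies next to MIR29C between CD34 and CD46, and MIR29E lies next to MIR29D. A mature bta-miR-29b read fits both of its loci and cannot be assigned to one of them. Family members are also similar in sequence, and how the counting treated reads that fit more than 1 member was not tested.

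Reads on known miRNAs ranged from 160418 to 405129 per library, with a median of 297448.5. A count of 3 reads, the limit that a count of 0 allows, lay between 0.000741% and 0.00187% of a library, or between 1.83 and 4.99 normalized counts. A normalized count is the read count divided by the size factor of the library (median of ratios over the 12 libraries). These limits cover counting error only, and the spread between replicates was larger, at a chi-square per degree of freedom of 10.2 to 128 for pairs of replicates. At day 7, SF replicate 1 stood apart from the other SF replicates (92.3 and 82.8, against 18.7 between replicates 2 and 3), and DF replicates 2 and 3 gave the highest value of all. No pair of libraries came close to counting noise, so none was merged.

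Nearly all of the family's signal came from bta-miR-29a, and its level was highest in DF at day 7. In SF at day 3, bta-miR-29a had 216, 177 and 168 reads in replicates 1, 2 and 3, or 192.6, 238.3 and 205.2 normalized counts. In DF at day 3 it had 169, 244 and 171 reads, or 127.0, 149.2 and 167.1 normalized counts. Every SF library of day 3 lay above every DF library of that day. In SF at day 7 it had 178, 368 and 310 reads, or 158.6, 372.2 and 302.1 normalized counts, and replicate 1 was the lowest there. In DF at day 7 it had 871, 431 and 984 reads, or 744.9, 716.9 and 885.5 normalized counts. These 3 libraries did not overlap with any of the other 9. The low read count of DF replicate 2 went with the smallest library of the series.

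The group means of bta-miR-29a, ordered from low to high, were 147.8 ± 20.1 normalized counts in DF at day 3, 212.0 ± 23.6 in SF at day 3, 277.6 ± 108.9 in SF at day 7 and 782.4 ± 90.4 in DF at day 7 (SD, n = 3 each). Only the last step of that order passed the thresholds of the test described next. SF at day 3 and SF at day 7 overlapped. By group mean, bta-miR-29a ranked 86 among the mature names in DF at day 3, 74 in SF at day 3, 69 in SF at day 7 and 50 in DF at day 7. The 4 members together made between 0.0490% and 0.314% of a library.

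**Figure D1:**
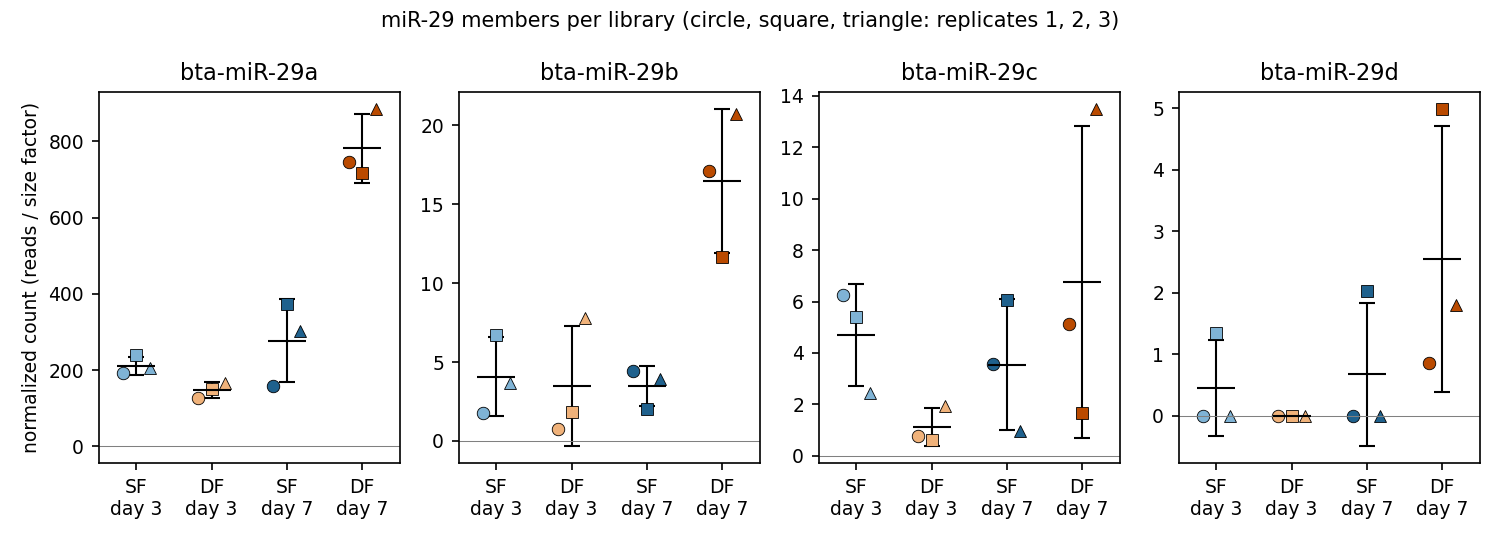
Normalized count (reads divided by the size factor) of each miR-29 member in the 12 libraries, by follicle class and day, with a linear axis of its own for each member. Symbols are replicates, horizontal lines are means and bars are SD over 3 replicates. The 3 DF libraries of day 7 stand between 716.9 and 885.5 for bta-miR-29a, above the other 9 libraries, while bta-miR-29c of the same libraries spreads from 1.66 to 13.5.

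The other members were rare, so that single reads decided much of their values. With bta-miR-29b, whose mature form comes from 2 genes, the SF libraries held 2, 5 and 3 reads at day 3 and 5, 2 and 4 reads at day 7. The DF libraries held 1, 3 and 8 reads of it at day 3 and 20, 7 and 23 reads at day 7. Its mean was 16.5 ± 4.56 normalized counts in DF at day 7 and between 3.46 and 4.06 in the other groups (n = 3 each), and the DF libraries of day 7 were again above all others. For bta-miR-29c, encoded beside one of the bta-miR-29b genes, the SF libraries of day 3 had 7, 4 and 2 reads and those of day 7 had 4, 6 and 1. In DF its counts were 1, 1 and 2 reads at day 3, against 6, 1 and 15 reads at day 7. Its DF libraries of day 7 overlapped with every other group, since replicate 2 held 1 read and replicate 3 held 15.

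Only DF at day 7 met the detection rule for bta-miR-29d, under which 2 of the 3 replicates of a group must hold 1 read or more. It had 1, 3 and 2 reads there, 0, 1 and 0 in SF at day 3, 0, 2 and 0 in SF at day 7, and 0 in each of the 3 DF libraries of day 3. A further name of the family, bta-miR-29e, held 2 reads in DF replicate 1 of day 7 and 0 in the other 11 libraries, where a count of 0 allows up to 3 reads in each.

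To see whether the family differed between follicle classes during recruitment, SF was compared with DF at day 3. bta-miR-29a was 1.39-fold higher in SF and bta-miR-29c was 4.22-fold higher, but neither met all thresholds. A miRNA was called differentially expressed when its log2 fold change reached 1 in either direction, p did not exceed 0.05 and the false discovery rate did not exceed 10%, in edgeR's quasi-likelihood F test over every miRNA that 1 or both of the groups detected. The log2 fold change of bta-miR-29a was 0.48 (SE 0.18, adjusted p = 0.0847 by edgeR), past the false discovery rate but under the fold threshold. For bta-miR-29c it was 2.08 (SE 0.84, adjusted p = 0.111 by edgeR), on 13 reads in SF against 4 in DF. bta-miR-29b gave 0.23 (SE 0.81, adjusted p = 0.907 by edgeR).

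Thus 0 of the 3 members tested at day 3 were called by edgeR and 0 by DESeq2, and 2 had an unadjusted p of at most 0.05. Among all 335 miRNAs tested, 5.67% were called. The SF and DF libraries did not overlap for bta-miR-29a and bta-miR-29c, which was so for 27.8% of all miRNAs tested. Without DF replicate 3 of day 3, bta-miR-29c passed all thresholds (log2 fold change 2.60, adjusted p = 0.0865 by edgeR, with a range of 0.0865 to 0.320 over its alternatives). The member median was 0.48 on the log2 scale, against −0.04 for all miRNAs tested. bta-miR-29d, with 1 read in all, was not tested.

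Between SF and DF at day 7, when dominance is established, 2 of the 3 members detected in both classes were called as lower in SF. bta-miR-29a was 2.67-fold lower in SF (log2 fold change −1.42, SE 0.31, adjusted p = 0.00685 by edgeR), and bta-miR-29b was 4.43-fold lower (log2 fold change −2.15, SE 0.49, adjusted p = 0.00824 by edgeR). All 3 SF libraries lay below all 3 DF libraries for both. bta-miR-29c had a log2 fold change of −0.92 (SE 0.79, adjusted p = 0.383 by edgeR), and without DF replicate 3 it was −0.04. For bta-miR-29d, 6 reads in DF stood against 2 in SF, a ratio of 3.27 with an exact 95% interval from 0.584 to 33.1 for counting error alone, and the test, which it entered through DF alone, gave an adjusted p of 0.364 (edgeR).

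Of all 350 miRNAs tested at day 7, 33.4% were called and 18.3% were called as lower in SF. The libraries did not overlap for 45.7% of them, against 2 of these 3 members. The median log2 fold change was −1.42 over the 3 and −0.05 over all miRNAs tested. Both member calls held when any 1 of the 6 libraries was left out. Without SF replicate 1, the library that stood apart, the log2 fold change of bta-miR-29a was −1.12.

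**Figure D2:**
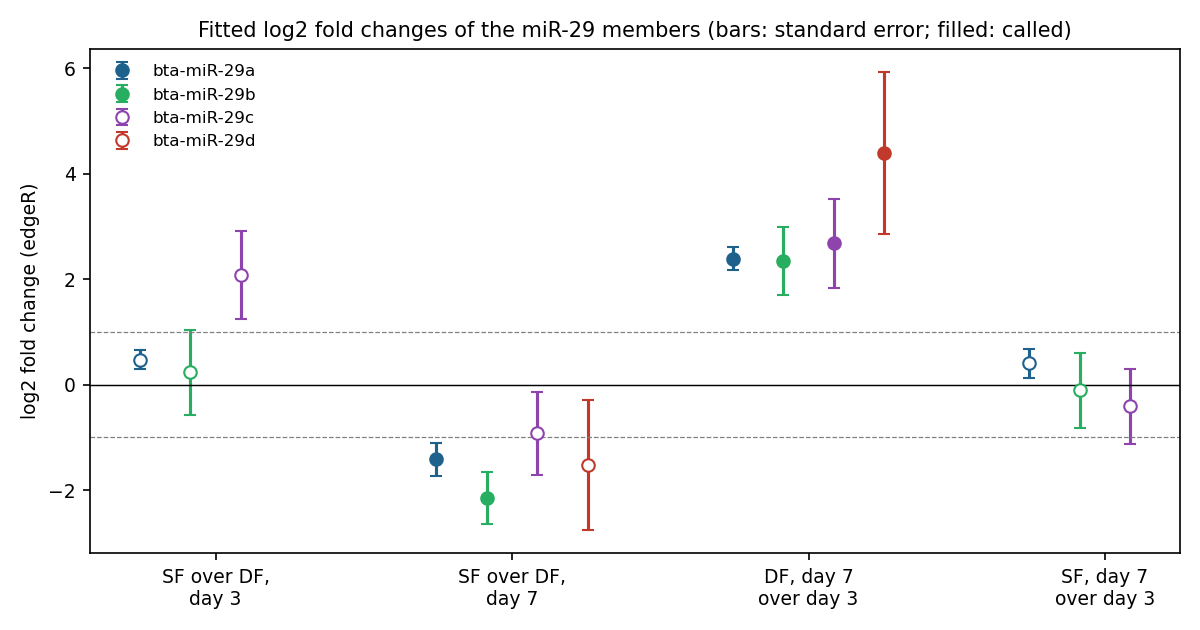
Log2 fold change of each miR-29 member in the 4 comparisons, from edgeR, with bars of 1 standard error on either side, filled symbols for members that met all thresholds and dashed lines at a log2 fold change of 1 in either direction. Called members appear at day 7 between the follicle classes (bta-miR-29a and bta-miR-29b) and in DF between the days, where bta-miR-29d entered the test through DF at day 7 alone and was not called by DESeq2. bta-miR-29d was not tested at day 3 or in SF.

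Over time in DF, from day 3 to day 7, the 3 members detected on both days were each called as higher at day 7. bta-miR-29a rose 5.23-fold (log2 fold change 2.39, SE 0.22, adjusted p = 8.20e-07 by edgeR). With log2 fold changes of 2.35 (SE 0.65, adjusted p = 0.0100 by edgeR) and 2.68 (SE 0.85, adjusted p = 0.0227 by edgeR), bta-miR-29b and bta-miR-29c rose by similar amounts. For bta-miR-29d, at 0 reads in the day 3 libraries of DF, the adjusted p was 0.0406 (edgeR). With a floor of 3 reads over the day 3 group, its level was 2.77-fold higher at day 7. That bound takes the 6 reads of day 7 as exact, so their counting error could put the difference lower. bta-miR-29d entered the test only through DF at day 7, the group where it was high, so its call is not counted with the others.

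The call of bta-miR-29a held under every alternative tried, with a log2 fold change between 2.23 and 2.45. Leaving out DF replicate 3 of day 7 ended the call of bta-miR-29c (log2 fold change 1.79, adjusted p = 0.149 by edgeR, with a range of 0.00598 to 0.149 over its alternatives), and leaving out DF replicate 3 of day 3 took bta-miR-29b to 3.48. By DESeq2, the same 3 were called and bta-miR-29d was not (adjusted p = 0.106, the highest of a range that began at 0.0350).

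Of all 360 miRNAs tested in DF, 40.3% were called and 24.4% were called as higher at day 7. The libraries of the 2 days did not overlap for bta-miR-29a and bta-miR-29b, and overlapped for bta-miR-29c, beside 50% of all miRNAs tested without overlap. The median log2 fold change was 2.39 over the 3 members detected on both days, or 2.37 over all 4 with bta-miR-29d at its bound, against 0.05 over all miRNAs tested.

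**Figure D3:**
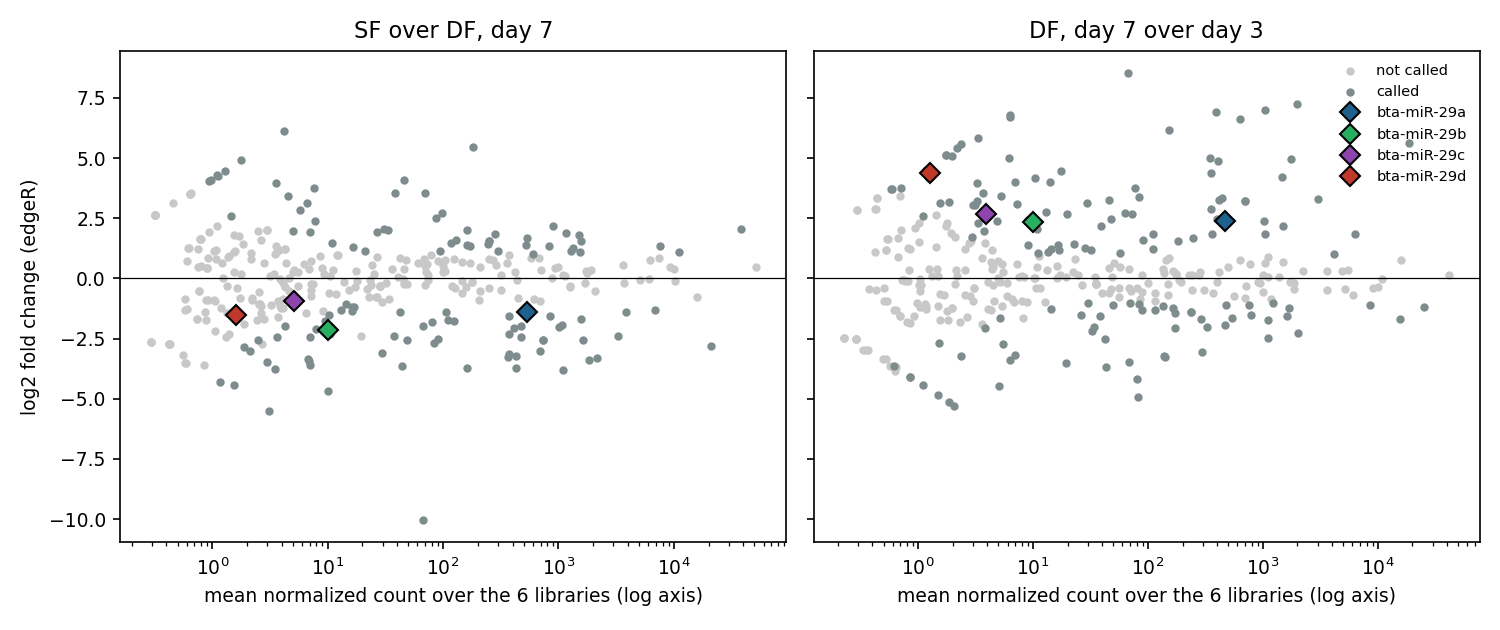
Log2 fold change from edgeR against mean normalized count over the 6 libraries (log axis) for every miRNA tested, in SF against DF at day 7 (left) and in DF at day 7 against day 3 (right), with called miRNAs in dark grey and the miR-29 members as diamonds. bta-miR-29a lies among the abundant miRNAs at −1.42 and 2.39, while the other members lie among the rare ones, where the spread of all miRNAs is wide.

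In SF, no member changed detectably from day 3 to day 7. The log2 fold change was 0.41 for bta-miR-29a (SE 0.28, adjusted p = 0.691 by edgeR), −0.11 for bta-miR-29b (SE 0.72, adjusted p = 0.971 by edgeR) and −0.41 for bta-miR-29c (SE 0.71, adjusted p = 0.928 by edgeR). Thus 0 of the 3 members tested were called by edgeR and 0 by DESeq2, and 0 had an unadjusted p of at most 0.05. Of all 337 miRNAs tested in SF, 0.593% were called and 13.9% had libraries that did not overlap, whereas all 3 members overlapped. The member median of −0.11 stood beside 0.03 for all miRNAs tested. Without SF replicate 1 of day 7, bta-miR-29a had a log2 fold change of 0.67 and the lowest adjusted p among its alternatives (0.0413 by edgeR, in a range up to 0.930), which was still under the fold threshold.

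Whether SF differed from DF by another amount at day 7 than at day 3 was tested as the interaction of follicle class and day over all 12 libraries. It was −2.02 on the log2 scale for bta-miR-29a (SE 0.36, adjusted p = 0.000490 by edgeR), −2.50 for bta-miR-29b (SE 1.01, adjusted p = 0.0858 by edgeR) and −3.13 for bta-miR-29c (SE 1.14, adjusted p = 0.0539 by edgeR). These 3 met the thresholds, and bta-miR-29d, detected in DF at day 7 alone, did not (−3.67, SE 2.35, adjusted p = 0.295 by edgeR). With 1 library left out the bta-miR-29d value ran from −6.37 (without SF replicate 2 of day 7) to −1.61 (without SF replicate 2 of day 3). Of all 378 miRNAs tested, 26.5% were called. Two-way comparisons and the interaction share libraries, so they are no separate evidence of each other.

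The interaction calls of the rare members were lost when any of several single libraries was left out. The call of bta-miR-29b was lost in 8 of 12 fits with 1 library left out, namely without SF replicates 2 or 3 of either day, DF replicates 1 or 2 of day 3, or DF replicates 1 or 3 of day 7, and without DF replicate 3 of day 3 its value was −3.64. That of bta-miR-29c was lost in 6 of 12, namely without SF replicates 1 or 2 of day 3, SF replicate 3 of day 7, DF replicates 1 or 2 of day 3, or DF replicate 3 of day 7, and its value was −2.22 without the last of these and −3.71 without SF replicate 2 of day 7. For bta-miR-29a the call was lost in 0 of 12, with values between −2.28 and −1.74.

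The make-up of the family within a library needs no scaling between libraries. bta-miR-29a made 95.9 ± 1.23% of the reads of the 4 members in SF at day 3, 97.2 ± 2.40% in DF at day 3, 97.0 ± 1.64% in SF at day 7 and 96.9 ± 0.717% in DF at day 7 (SD, n = 3 each). bta-miR-29b made between 1.49% and 2.07% on average. The mean share of bta-miR-29c was 2.14 ± 0.978% in SF and 0.698 ± 0.364% in DF at day 3, a difference of 1.44 percentage points with p = 0.1 in a two-sided exact permutation test (n = 3 each). That is the smallest p that 3 against 3 libraries allow, so no share could pass a threshold of 0.05, and the adjusted p was 1 for each of the 12 shares tested.

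The 5 miRNAs whose levels ran most like those of bta-miR-29a over the 12 libraries were bta-miR-21-5p, bta-miR-708, bta-miR-21-3p, bta-miR-27a-3p and bta-miR-181a. Pearson's r of log2(normalized count + 1) was 0.981, 0.980, 0.980, 0.971 and 0.969, among 184 miRNAs with a mean of at least 10 normalized counts, and is given as a description since all points share the same libraries and scaling. The pattern common to them was a low level in DF at day 3 and a high one in DF at day 7. In DF, the mean of bta-miR-27a-3p, for example, went from 77.4 ± 3.88 normalized counts on day 3 to 799 ± 109 on day 7, while its SF means were 114 ± 4.43 and 141 ± 37.8 (SD, n = 3 each). Both arms of bta-miR-21, a miRNA induced in many injured tissues, had larger changes in DF than bta-miR-29a, with log2 fold changes of 5.62 (SE 0.22) for bta-miR-21-5p and 6.61 (SE 0.30) for bta-miR-21-3p. The rare members had lower values, with r of 0.787 for bta-miR-29b, 0.782 for bta-miR-29d and 0.528 for bta-miR-29c. Their counts were mostly under 10 reads per library, where counting error alone lowers r.

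**Figure D4:**
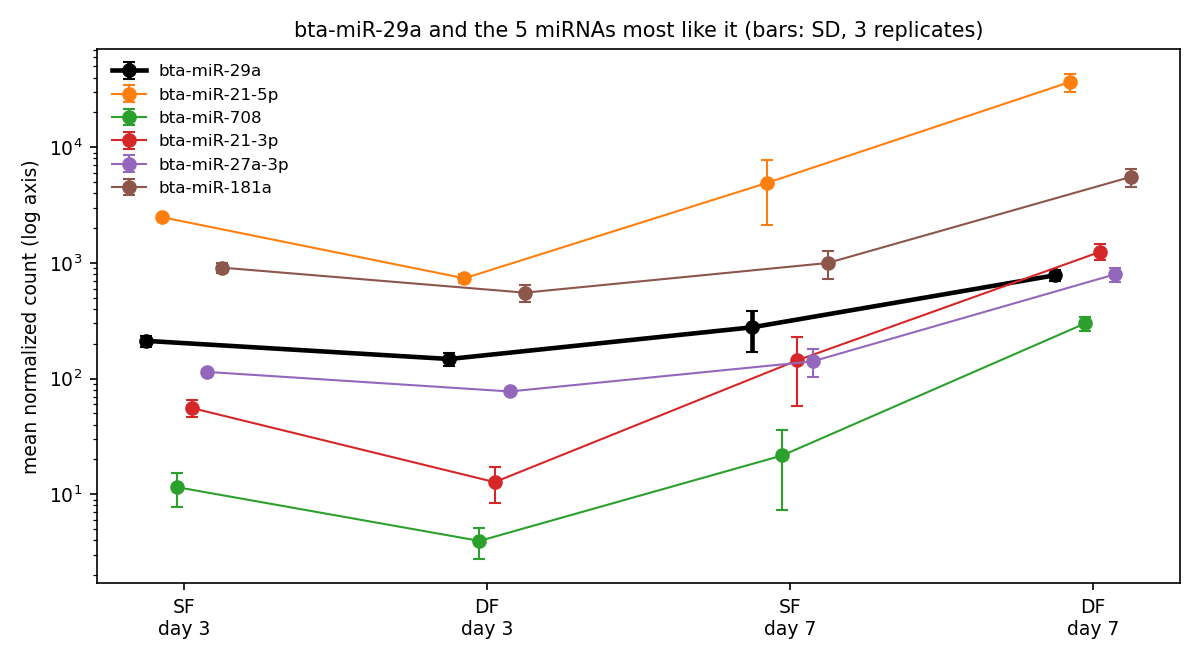
Mean normalized count (log axis) of bta-miR-29a and of the 5 miRNAs most like it in the 4 groups, with bars of SD over 3 replicates; lines join the groups of 1 miRNA and stand for no order in time. Each of the 6 has its lowest mean in DF at day 3 and its highest in DF at day 7.

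Next to miR-29, other miRNAs are known from work on fibrosis, where bta-miR-21, bta-miR-199a, bta-miR-214 and bta-miR-155 are usually raised and the bta-miR-30 and bta-miR-200 families usually lowered. A list of 18 such miRNAs was chosen with earlier results of these data known, so its counts are a description and not a test. Of these 18, 14 were detected in DF on both days. Of the 14, 6 were called as higher and 2 as lower at day 7. Among all miRNAs tested, 40.3% were called and 24.4% were called as higher. The median log2 fold change of the 14 was 0.34. Those that rose were bta-miR-21-5p, bta-miR-21-3p, bta-miR-199a-5p, bta-miR-199a-3p, bta-miR-214 and bta-miR-155, among them bta-miR-199a-3p with a log2 fold change of 3.23 (SE 0.22). As both arms of bta-miR-21 and both of bta-miR-199a are among them, these 6 names are not independent of each other. bta-miR-133a was called too (3.54, SE 0.91), but entered the test through DF at day 7 alone, with 20 reads there against 2 in DF at day 3. The 2 that fell were bta-miR-30c (−1.10, SE 0.19) and bta-miR-30e-5p (−1.55, SE 0.19). Members of the miR-29 family are usually lowered in fibrosis.

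As the list was chosen with earlier results known, its counts in the other comparisons are a description as well. In SF against DF at day 7, 14 of the 18 were detected in both classes. Of these, 7 were called as lower and 2 as higher in SF, beside 33.4% called and 18.3% called as lower among all miRNAs tested. The median log2 fold change of the 14 was −1.08, and −0.20 over the 17 tested, which took in 3 rare miRNAs detected in 1 class alone. At day 3, 4 of the 14 detected in both classes were called, all as higher in SF (bta-miR-21-5p, bta-miR-21-3p, bta-miR-214 and bta-miR-155), beside 5.67% of all miRNAs tested, with a median of 0.37, and bta-miR-141, which entered through DF alone, was called as lower. In SF over time, 1 of the 15 detected on both days was called (bta-miR-155, higher at day 7), beside 0.593% of all miRNAs tested, and the median was −0.14. For the interaction, 7 of 17 tested were called as lower and 1 as higher, beside 26.5% of all miRNAs tested called, with a median of −0.57.

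Markers of other cells also differed where the miR-29 members did, and their part in the result was not tested. In bulk samples, fewer cells of a type and less RNA per cell cannot be told apart. The summed level of 4 leukocyte miRNAs (bta-miR-142-5p, bta-miR-142-3p, bta-miR-150 and bta-miR-223) was 3110, 8636 and 783 normalized counts in DF replicates 1, 2 and 3 at day 7, against 108 to 220 in the libraries of day 3 and 184 to 705 in SF at day 7. Of the 3 detected in both groups compared, 3 were called as higher in DF at day 7 than at day 3, beside 24.4% of all miRNAs tested. As lower in SF than in DF at day 7, 2 were called, beside 18.3% of all miRNAs tested. bta-miR-142-3p was called in both comparisons too, but entered them through DF at day 7 alone, with 10 reads there, 1 in SF at day 7 and 0 in all libraries of day 3. Within DF at day 7, bta-miR-29a was highest in replicate 3, where the leukocyte sum was lowest, and lowest in replicate 2, where that sum was highest. In SF at day 7 the rankings ran together, with leukocyte sums of 184, 705 and 209 in replicates 1, 2 and 3 and bta-miR-29a lowest in replicate 1 and highest in replicate 2. Rankings of 3 libraries are too few to decide where a signal came from, and they are given as a description. Without DF replicate 2 of day 7 the log2 fold change of bta-miR-29a was 2.44 in DF over time and −1.47 in SF against DF at day 7.

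The smooth muscle and fibroblast miRNAs bta-miR-143 and bta-miR-145, markers of theca and stroma, summed to 9892, 6723 and 14191 normalized counts in DF replicates 1, 2 and 3 at day 7, the same ranking of replicates as that of bta-miR-29a. In SF at day 7 the sums of 2869, 4909 and 3972 also ranked as bta-miR-29a did. At day 3 the rankings differed, with sums of 4893, 3694 and 4117 in SF and 2206, 3894 and 2413 in DF. Both were called as higher in DF at day 7 than at day 3, as were 24.4% of all miRNAs tested. bta-miR-143 was called as lower in SF than in DF at day 7, as were 18.3% of all miRNAs tested. The endothelial bta-miR-126-3p and bta-miR-126-5p summed to 130 to 160 normalized counts in DF at day 7, 61.6 to 101 in DF at day 3, 103 to 131 in SF at day 3 and 90.9 to 221 in SF at day 7. In DF over time 1 of 2 was called, as higher at day 7, beside 24.4% of all miRNAs tested.

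For erythrocytes (bta-miR-451, bta-miR-486 and bta-miR-144), the sum was 808 to 2322 in DF at day 7, 737 to 1087 in DF at day 3, 315 to 1642 in SF at day 3 and 438 to 515 in SF at day 7. In DF over time bta-miR-451 and bta-miR-486 had log2 fold changes of 0.84 and 0.65, under the fold threshold. Both were called as lower in SF than in DF at day 7, beside 18.3% of all miRNAs tested, and bta-miR-144 was at 0 reads in SF there. bta-miR-202, a miRNA typical of the gonads, was present in every library. Its level was 753, 364 and 976 normalized counts in DF replicates 1, 2 and 3 at day 7 and 2213 to 3673 in all other libraries. Within DF at day 7 it thus ranked the replicates as bta-miR-29a did, as bta-miR-143 with bta-miR-145 also did. In SF at day 7 (2474, 2213 and 2243) its ranking differed from that of bta-miR-29a. bta-miR-202 was called as lower in DF at day 7 than at day 3 (log2 fold change −2.28) and as higher in SF than in DF at day 7 (log2 fold change 1.81).

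**Figure D5:**
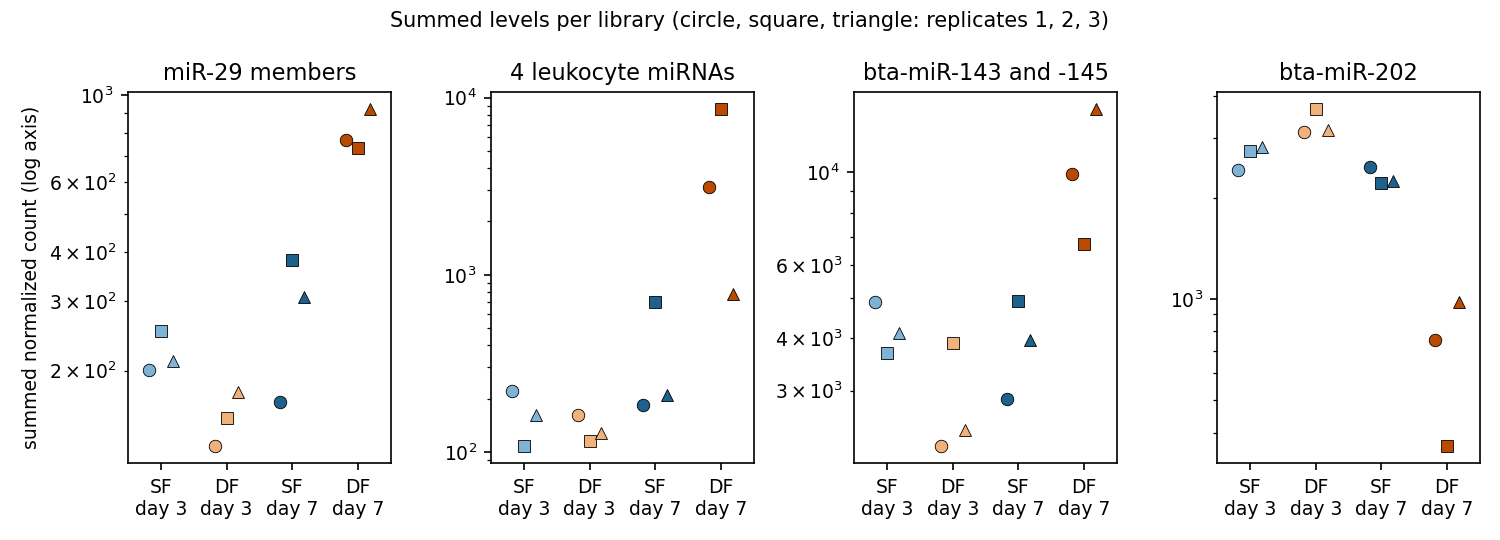
Summed normalized counts per library (log axes) of the 4 miR-29 members, 4 leukocyte miRNAs, bta-miR-143 with bta-miR-145, and bta-miR-202, by follicle class and day, with circles, squares and triangles for replicates 1, 2 and 3. The DF libraries of day 7 lie above the other 9 in the first 3 panels and below them in the last, and the leukocyte sums of these 3 libraries spread from 783 to 8636.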

How the data were processed

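Small RNA libraries of granulosa cells were prepared with the TruSeq Small RNA protocol and sequenced on a HiSeq instrument by a sequencing company. Base calling used CASAVA 1.8.0 per the submitters' processing notes, which also name FastQC and cutadapt. The authors trimmed the reads, aligned them to the bovine genome and counted them on miRBase miRNAs with miRDeep2, and deposited raw read counts per pair of mature miRNA and precursor, without normalization. For 73 names with several entries, the entry with the highest total was used.

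Groups and replicate numbers came from the labels. Counts were tested with edgeR 4.0.16 in R 4.3.3 (quasi-likelihood F test, median-of-ratios scaling, prior count of 0.125, Benjamini-Hochberg adjustment) on the 6 libraries of each comparison, and on all 12 for the interaction. The SE is the size of the log2 fold change divided by the square root of F, an approximation. The authors had used DESeq2, here an alternative (1.42.0). Permutation tests used scipy 1.17.1. The procedure was tested on simulated counts.

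As labels do not tie replicate numbers to animals, the main fits did not use the numbers to pair samples. Same-numbered replicates correlated at −0.124 to 0.141, with 2 of 12 pairs over 0.1. Pairs that cross the days come from different heifers and cannot show shared animals. For SF with DF of one day, replicates 1, 2 and 3 gave −0.124, −0.0624 and 0.00910 (day 3) or 0.0997, 0.0847 and 0.126 (day 7). Whether the libraries of a day share animals is not settled by these values. Other alternatives were scaling by TMM or by library size alone, no filter on low counts or one asking for 10 reads in 3 libraries, all 12 libraries in one fit, entries summed or kept apart, a prior count of 2, a false discovery rate threshold of 5%, a replicate block, and leaving out each library. Members and lists were chosen with earlier results of these data known. Named miRNAs were the members, the 5 most like bta-miR-29a, and list members that were called (at most 4 with values).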

Additional observations from a re-analysis of the deposited data

Results flagged for a closer look

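For 3 members, SF differed from DF by another amount at day 7 than at day 3 by the interaction test of edgeR. bta-miR-29a was higher in SF at day 3 by 0.48 and lower by 1.42 at day 7 on the log2 scale, and the change was −2.02 (adjusted p = 0.000490 by edgeR). For bta-miR-29b the change was −2.50 (adjusted p = 0.0858 by edgeR), and for bta-miR-29c −3.13 (adjusted p = 0.0539 by edgeR). The bta-miR-29b and bta-miR-29c values rest on at most 23 reads per library. With 1 library left out, the call was lost in 8 of 12 fits for bta-miR-29b and in 6 of 12 for bta-miR-29c. Of all 378 miRNAs tested, 26.5% were called for the interaction.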

How the results depend on the processing

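Across the alternatives, the member calls at day 7 and in DF over time changed little, while the rare members and the counts of comparisons with few calls depended on the settings. At day 3, 19 miRNAs were called, and 11 by DESeq2, 12 with at least 10 reads in at least 3 libraries, 8 with all 12 libraries in one fit and 10 to 21 with 1 library left out (10 without SF replicate 1). Members called there were 0, but 1 with all entries as listed (bta-miR-29c) and 0 to 1 with 1 library left out. With at least 10 reads in at least 3 libraries, too few reads kept the rare members out, which left 1 member called at day 7 between SF and DF, 1 in DF over time among 92 miRNAs (145 without that filter), and 1 for the interaction. For the interaction 1 member was called at a false discovery rate of 5% and 1 to 3 with 1 library left out. In SF over time 2 miRNAs were called, and 5 by DESeq2, 12 without a filter, 0 with at least 10 reads in at least 3 libraries, 1 with all 12 libraries in one fit, 10 with all entries as listed and 0 to 20 with 1 library left out (20 without SF replicate 1 of day 7). With 1 library left out, bta-miR-29b ranged from −0.34 to 1.39 in SF against DF at day 3 and from −0.56 to 0.42 in SF over time, and bta-miR-29c from −1.02 to 0.029 in SF over time, so their signs were not settled. With a prior count of 2, the fitted log2 fold change of bta-miR-29d in DF over time was 1.19 in place of 4.38.

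With the replicate number as a block, 15, 115, 137 and 7 miRNAs were called in the comparisons at day 3, at day 7, in DF and in SF, and 106 for the interaction (19, 117, 145, 2 and 100 without the block). The replicate block changed no member call. Same-numbered samples did not deviate together over all 12 pairs, which include pairs across days from different heifers. At day 7, however, each of the 3 SF samples correlated best with the DF sample of its own number. This is a hint from the data and not from the design, and at day 3 it held for replicate 3 alone. Library size alone moved the median of all miRNAs from −0.05 to −0.20 in SF against DF at day 7, and relative to that median bta-miR-29a was at −1.36 before and −1.38 after. In DF over time that median moved from 0.05 to −0.09, and bta-miR-29a relative to it from 2.33 to 2.32. In SF over time it moved from 0.03 to −0.11, with bta-miR-29a at 0.38 and 0.36 relative to it. The causes of these shifts were not tested. Depth limits bta-miR-29b, bta-miR-29c and bta-miR-29d, whose counts were mostly under 10 reads per library.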
